A study of Mus musculus with 8 samples.

Results

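Of the 26244 Pax6 sites of the authors' deposited table, 11511 (43.9%) had a peak summit in exactly 1 of the 4 Pax6 ChIP-seq libraries. Each site is a window of 100 bp on the mouse mm10 build, and a library was taken to hold a site when its own list of summits had one within 250 bp of the middle of the window. The sites were thus chosen by measured values, the summit calls of the 4 libraries, and the concentrations and calls of the authors come from the same libraries. A further 935 sites had no summit in any library, 5064 had one in 2 libraries, 3487 in 3 libraries and 5247 in all 4. The single-library sites are the largest of these classes and are described here by library: summit score, signal, annotation and genes.

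Chromatin immunoprecipitation of Pax6 had been sequenced in alphaTC1 cells, a mouse line of glucagon-producing pancreatic alpha cells. The control KD cells had been given antisense oligonucleotides with a scrambled sequence, and the Paupar KD cells oligonucleotides against Paupar, a long non-coding RNA whose gene neighbours Pax6. Each group had 2 Pax6 ChIP libraries, stated to be biological duplicates of this 1 cell line, and 2 input libraries, which were not analysed here. The level of Paupar and the markers of alpha cells could not be checked, since no RNA was measured.

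Pax6 is a transcription factor with a paired domain and a homeodomain, each of which binds its own short DNA motif. In the endocrine pancreas it is needed for the hormone-producing cells, where it acts at the glucagon, insulin and somatostatin genes and at genes of hormone processing. Outside the pancreas it is best known for the development of the eye and the forebrain.

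To show what such sites look like, the promoter of the highest-scoring single-library site of each library is printed among those whose middle lay within 250 bases upstream of a RefSeq gene start and where no other gene overlapped the stretch. The sequences are from RefSeq (GRCm38.p6, the assembly of mm10), run 5′ to 3′ on the strand of the gene up to its start, and have the part covered by the site in capitals. The stretch of 6430584L05Rik, a gene known by its clone name, is chr6:55396637-55396886 on the plus strand, and its summit was found in control KD replicate 1. The stretch of Slc25a36, which encodes a mitochondrial nucleotide carrier, is chr9:97111042-97111291 on the minus strand, with its summit in control KD replicate 2. The stretch of Klhdc9, a kelch-domain gene, is chr1:171360799-171361048 on the minus strand, with its summit in Paupar KD replicate 1. The stretch of Rasgrf2, which encodes a Ras guanine nucleotide exchange factor, is chr13:92131829-92132078 on the minus strand, with its summit in Paupar KD replicate 2.
6430584L05Rik: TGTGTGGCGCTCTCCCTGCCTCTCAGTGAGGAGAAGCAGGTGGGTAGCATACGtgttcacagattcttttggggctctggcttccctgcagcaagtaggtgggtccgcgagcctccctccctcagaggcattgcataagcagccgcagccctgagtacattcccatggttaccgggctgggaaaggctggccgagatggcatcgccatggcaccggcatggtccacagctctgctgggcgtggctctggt
Slc25a36: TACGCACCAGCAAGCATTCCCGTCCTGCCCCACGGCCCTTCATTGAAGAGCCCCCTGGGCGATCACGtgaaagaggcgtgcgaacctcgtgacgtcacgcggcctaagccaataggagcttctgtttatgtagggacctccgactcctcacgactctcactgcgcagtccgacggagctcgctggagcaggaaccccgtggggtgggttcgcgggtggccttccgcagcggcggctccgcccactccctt
Klhdc9: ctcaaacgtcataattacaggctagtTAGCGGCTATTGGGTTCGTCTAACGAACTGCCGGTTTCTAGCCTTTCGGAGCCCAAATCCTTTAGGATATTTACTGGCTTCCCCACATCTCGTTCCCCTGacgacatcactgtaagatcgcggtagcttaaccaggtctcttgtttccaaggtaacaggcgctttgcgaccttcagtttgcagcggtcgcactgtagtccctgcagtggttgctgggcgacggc
Rasgrf2: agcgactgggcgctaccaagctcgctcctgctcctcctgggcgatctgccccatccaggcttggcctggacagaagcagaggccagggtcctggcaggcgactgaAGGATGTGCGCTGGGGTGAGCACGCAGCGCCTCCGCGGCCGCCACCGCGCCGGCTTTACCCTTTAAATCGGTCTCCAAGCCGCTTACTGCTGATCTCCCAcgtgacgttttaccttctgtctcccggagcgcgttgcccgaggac

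The 4 stretches hold 10 CpG dinucleotides at 6430584L05Rik, 24 at Slc25a36, 16 at Klhdc9 and 22 at Rasgrf2. None holds the letters TTCACGC, the core of the Pax6 paired-domain motif, on either strand, which says only that these letters are not in these stretches. The Rasgrf2 site (score 31.2) had the strongest signal of the 4 per the authors' deposited table, 7.44 for control KD against 7.03 for Paupar KD, although the nearest summit of any other library was 90.0 kb away. At the 6430584L05Rik site, by contrast, another library had a summit 267.5 bp away, just past the window of 250 bp. These signal values are mean log2 concentrations per group, the authors' read signal in the site, and the table gives none per library.

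The single-library sites were spread unevenly over the libraries. Control KD replicate 1 held 2633 of them, control KD replicate 2 held 1136, Paupar KD replicate 1 held 3403 and Paupar KD replicate 2 held 4339 (37.7% of all). Measured against all sites with a summit in the same library, they made up 20.1% (exact 95% interval 19.4 to 20.8) of the 13106 sites of control KD replicate 1 and 12.4% (11.8 to 13.1) of the 9147 of control KD replicate 2. In the Paupar KD libraries they made up 23.9% (23.2 to 24.6) of 14265 sites in replicate 1 and 26.2% (25.5 to 26.9) of 16570 in replicate 2. These intervals cover counting error only. The numbers also depend on which libraries are set against each other: without Paupar KD replicate 2, the sites of Paupar KD replicate 1 alone numbered 5569, and without Paupar KD replicate 1 those of Paupar KD replicate 2 alone numbered 6505. The order of the shares was that of the lengths of the summit lists, which held 14311, 9983, 15611 and 17942 summits in the same order of libraries. With each list shortened to its 9983 highest-scoring summits, the shares became 16.3% in control KD replicate 1, 21.3% in control KD replicate 2, 20.7% in Paupar KD replicate 1 and 14.1% in Paupar KD replicate 2, so that the shortest list then had the highest share and the longest list the lowest. The total fell to 6756 sites under this setting.

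Summit scores, which are the authors' own values read as the −log10 of a q-value and comparable only within a list, were low at most of these sites. The median score was 5.83 in control KD replicate 1, 4.58 in control KD replicate 2, 6.30 in Paupar KD replicate 1 and 5.44 in Paupar KD replicate 2. The sites of the same libraries that had a summit elsewhere too had medians of 14.7, 10.8, 12.9 and 12.9. Between 52.7% (Paupar KD replicate 1) and 68.3% (control KD replicate 2) of the single-library sites lay in the lowest 25% of their library's matched sites by score. None was among the 100 highest-scoring sites of any library. Whether a summit is listed depends on its score, so the sites were in part chosen by these scores, and they are given as a description.

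The single-library share fell with score in all 4 lists, but not to the same end. With each list divided into 10 equal bins, the share in the lowest bin was 54.2%, 48.4%, 52.2% and 67.6%, in the order above. In the highest bin it was 0 of 1312 sites in control KD replicate 1 (which, at 3 counts of the total, allows a share of up to 0.229%), 0.109% in control KD replicate 2, 2.88% in Paupar KD replicate 1 and 0.181% in Paupar KD replicate 2. By rank within its own list, Paupar KD replicate 1 thus kept a group of strong summits that no other library had within the window of 250 bp. Of its single-library sites, 5.70% were in the highest 25% of its matched sites by score, against 0.494%, 0.264% and 1.01% in control KD replicate 1, control KD replicate 2 and Paupar KD replicate 2. Among the 1000 highest-scoring sites of each library, 21 were single-library in Paupar KD replicate 1 and 0, 1 and 1 in the others.

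**Figure D1:**
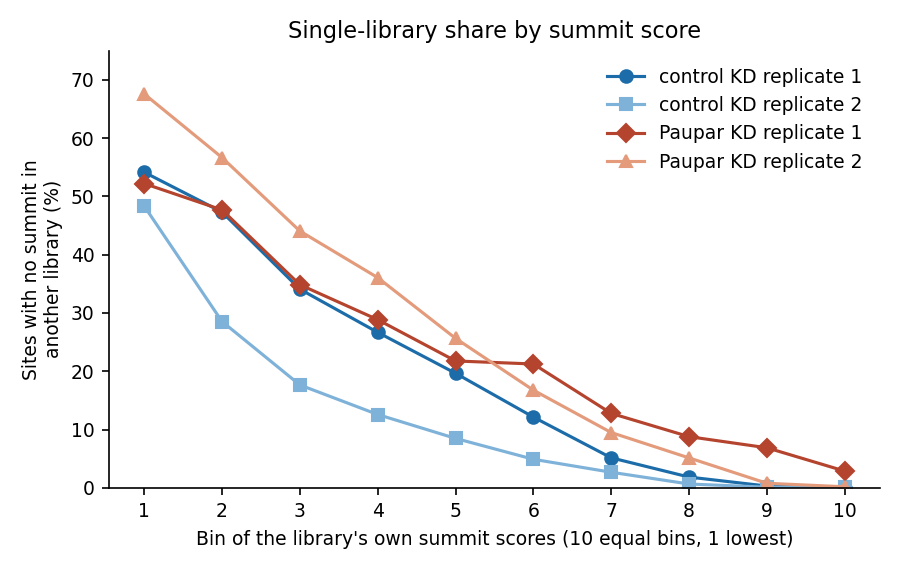
The x axis gives 10 equal bins of each library's own summit scores from lowest (1) to highest (10), and the y axis the percentage of that bin's sites that had no summit in another library; each line is 1 library. All lines fall from 48.4% or more in the lowest bin, and the line of Paupar KD replicate 1 ends highest, at 2.88%.

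The strongest of these summits by library lay at genes of varied roles. In Paupar KD replicate 1 the top score, 143, was in intron 2 of 14 of Hipk2, a kinase that phosphorylates homeodomain proteins, and the authors' deposited table gave it 2.53 for control KD against 6.59 for Paupar KD. The next were distal to Itga1 (an integrin alpha chain, score 119; 2.37 and 6.44), in an intron of Tshr (the thyrotropin receptor, 115; 2.43 and 5.60) and in intron 1 of 10 of Il1r1 (an interleukin-1 receptor, 108; 4.51 and 7.11 per the authors' deposited table). At each of these 4 sites the signal was higher in Paupar KD, yet the deposited false discovery rate (FDR) did not fall below 0.05: it was 0.21 at Hipk2, 0.153 at Itga1, 0.205 at Tshr and 0.0828 at Il1r1. Paupar KD replicate 2, the other library of the group, had a summit 560.5 bp from the Tshr site and 400.5 bp from the Il1r1 site, while the nearest summit of another library was 24.0 kb from the Hipk2 site and 14.7 kb from the Itga1 site. Adgrb3, an adhesion receptor gene of neurons, had the fifth of these sites, with a score of 93.7, concentrations of 3.57 and 6.38 per the authors' deposited table and a Paupar KD replicate 2 summit at 444.5 bp.

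In Paupar KD replicate 2 the strongest single-library summits differed in kind, in that the signal at them was high in both groups. Utrn, which encodes the dystrophin relative utrophin, had the top score of 57.1 at a promoter site, chr10:12869564-12869663, with 8.30 for control KD against 8.12 for Paupar KD per the authors' deposited table (FDR 0.788). The nearest summits of the other 3 libraries were 19015.5, 19013.5 and 18642.5 bp away. The promoter of Cdk12, a kinase of transcription elongation, had a score of 43.1 with 7.18 and 7.40 per the authors' deposited table, and no other library had a summit within 62.6 kb. A distal site near Yy1, a zinc finger transcription factor, had a score of 38.0 with 7.26 and 7.14, and one at the promoter of Trim8, a ubiquitin ligase gene, a score of 36.0 with 6.62 and 6.60 in the same authors' deposited table. So at these 4 sites the groups differed by at most 0.23 (log2) although only 1 of the 4 lists carried a summit. Ndufs8, a gene of respiratory complex I, was the exception among the top 5: other libraries had summits from 349.5 bp away (score 39.4; 6.25 and 5.89 per the authors' deposited table).

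Some of the strongest single-library summits of the control KD libraries were near misses of the window. In control KD replicate 1 the top site lay in intron 17 of 17 of Sema3d, a secreted axon guidance factor, with a score of 41.1, concentrations of 5.49 for control KD against 5.06 for Paupar KD per the authors' deposited table, and the nearest other summit 320.0 kb away. It was followed by Mrps6, a mitochondrial ribosomal protein gene (score 32.8; 5.23 and 4.58 per the authors' deposited table), where Paupar KD replicate 2 had a summit at 327.5 bp. In control KD replicate 2 the 2 highest scores, 36.5 near Ccdc190 and 21.9 near Lbp, the gene of the lipopolysaccharide-binding protein, were both sites where other libraries had a summit just outside the window, 266.5 and 265.5 bp away. The third, at the promoter of Pcnx4, had a score of 18.4, and the nearest other summit was 128 kb away.

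Over all single-library sites the signal was low in both groups. The mean concentration had a median of 3.66 per the authors' deposited table (quartiles 3.15 and 4.24), against 5.90 (5.35 and 6.52) at the sites that all 4 libraries held and 4.42 over the whole table. At the sites of control KD replicate 1 the medians were 3.84 for control KD against 3.39 for Paupar KD, and at those of control KD replicate 2 they were 3.95 and 3.28 per the authors' deposited table. At the sites of Paupar KD replicate 1 they were 2.48 for control KD against 3.99 for Paupar KD, and at those of Paupar KD replicate 2 they were 3.59 and 4.04 per the authors' deposited table. The group that held the summit was the higher one at 79.4%, 85.7%, 88.0% and 64.6% of the sites, in the same order of libraries. The choice of a site by a summit in 1 group fixes much of this direction, so it is described and not tested.

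The median log2 change (Paupar KD minus control KD) was therefore of opposite sign by group per the authors' deposited table: -0.52 and -0.70 at the sites of the control KD libraries, and 1.49 and 0.33 at those of Paupar KD replicates 1 and 2. The 2 libraries of a group were also unlike each other, most of all in Paupar KD. In control KD, 388 sites of Paupar KD replicate 1 were listed at the floor of the table (a concentration at or below 0), against 59 of Paupar KD replicate 2, although the latter had more sites. In Paupar KD, 3 sites of control KD replicate 1 and 17 of control KD replicate 2 were listed at the floor.

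**Figure D2:**
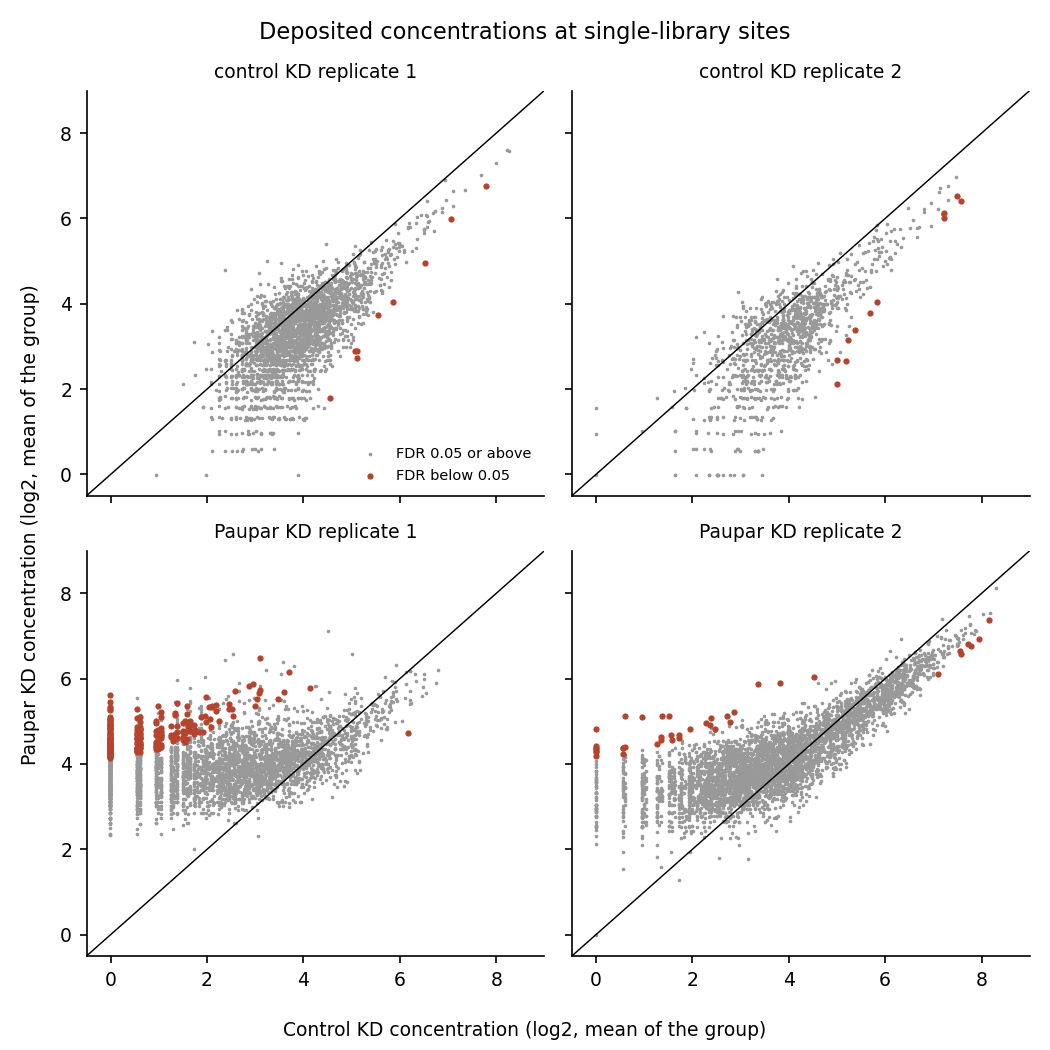
Each panel shows the single-library sites of 1 library as points, with the control KD concentration (log2) on the x axis and the Paupar KD concentration (log2) on the y axis, both the authors' group means; the line marks equal values, and red points had a deposited FDR below 0.05. Points of the control KD libraries lie mostly below the line, those of Paupar KD replicate 1 spread to the left edge with a median of 2.48 in control KD, and those of Paupar KD replicate 2 follow the line to high concentrations.

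A small number of single-library sites carried a strong signal, and most of these belonged to Paupar KD replicate 2. Its mean concentration exceeded the median of the 4-library sites at 366 sites (8.44%), compared with 34 (1.29%), 27 (2.38%) and 19 (0.558%) for control KD replicate 1, control KD replicate 2 and Paupar KD replicate 1. Of the 366 sites, 338 (92.3%) were promoters, and 247 (67.5%) had no summit of another library within 10 kb. Their median concentrations were 6.50 for control KD against 6.12 for Paupar KD per the authors' deposited table, and only 20 had the higher value in Paupar KD. These sites thus had a summit in a Paupar KD library alone while their signal was mostly the same or lower in that group. This lean was not particular to them: their median log2 change was -0.42, against -0.29 at the 4-library sites. At the sites above the same median it was -0.645 in control KD replicate 1, -0.75 in control KD replicate 2 and -0.37 in Paupar KD replicate 1. Zfp668, a zinc finger gene, was next to Utrn at the top of this group, with 8.18 for control KD against 7.55 for Paupar KD per the authors' deposited table and a score of 18.6.

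In the other 3 libraries the sites of highest mean concentration were promoters as well. Larp4b, which encodes a La-related RNA-binding protein, had 8.26 for control KD against 7.57 for Paupar KD per the authors' deposited table, and Arid1a, which encodes a subunit of the SWI/SNF chromatin remodeller, had 8.23 and 7.60; both had their summit in control KD replicate 1. Pcnx4 (7.57 and 6.42) and Gar1, a gene of the small nucleolar RNA machinery (7.47 and 6.97 per the authors' deposited table), had theirs in control KD replicate 2. Zc3h3 (6.80 and 6.20) and Lamtor3, a gene of the lysosomal Ragulator complex (6.75 and 5.89 per the authors' deposited table), had theirs in Paupar KD replicate 1, where the Lamtor3 site had another library's summit at 303.5 bp. At all 6 promoters control KD had the higher concentration, also at the 2 with their summit in a Paupar KD library.

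The strong summits of Paupar KD replicate 1 were of another kind. Its 194 sites with a score over 20, which need not mark the same strength in each list, had median concentrations of 1.96 for control KD against 5.01 for Paupar KD per the authors' deposited table; 193 were higher in Paupar KD. Promoters made up 17 (8.76%) of them, and 112 (57.7%) lay over 10 kb from any other library's summit. By contrast, the 35 sites of Paupar KD replicate 2 with a score over 20 had medians of 5.83 and 5.79 per the authors' deposited table, and 22 (62.9%) were promoters. The 28 such sites of control KD replicate 1 had medians of 5.25 and 4.51 per the authors' deposited table, with 5 promoters.

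The annotation of the sites did not take part in their choice and could be compared over libraries. Promoters, taken as all sites that the authors annotated within 3 kb of a gene start, made up 19.8% of the single-library sites of control KD replicate 1, 20.3% of control KD replicate 2, 18.9% of Paupar KD replicate 1 and 37.2% of Paupar KD replicate 2. The sites of the same libraries that another library shared had promoter shares of 28.5%, 29.4%, 27.3% and 29.4%, so the single-library share was lower by 8.70, 9.03 and 8.44 percentage points in the first 3 libraries and higher by 7.85 in the last. Over the 4 libraries the mean was 24.0% ± 8.79 (SD, n = 4) for single-library sites and 28.6% ± 0.971 for shared ones, a difference of -4.58 ± 8.29 points (exact sign-flip permutation test, two-sided, p = 0.25; adjusted p = 1 over 4 tests). With 4 libraries this test cannot reach a p of 0.05. The sets of shared sites overlap, since the 5247 sites held by all 4 libraries are in each of them. Their SD of 0.971 is therefore not a spread of independent sets. The differences within libraries are not independent either, here and for the distances below. The difference in promoter share within libraries was smaller under some other settings. It was -2.49 points with a window of 100 bp, -2.09 for summits with a score of 5 or more, -0.79 with equal list lengths and -2.89 without control KD replicate 2. Under others it was larger: -6.18 for promoters within 1 kb, -4.92 without Paupar KD replicate 1 and -4.74 with a window of 500 bp. Between the groups the promoter share was 20.1% ± 0.387 (SD, n = 2) in control KD and 28.0% ± 13.0 in Paupar KD, a difference of 7.97 points that was smaller than the spread of the Paupar KD libraries (exact permutation test, two-sided, p = 1; adjusted p = 1; the smallest p that 2 against 2 allows is 0.333). Without Paupar KD replicate 2 the group difference was -3.62 points, so its sign rests on that library.

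The excess of promoters in Paupar KD replicate 2 lay close to gene starts. Promoter sites within 1 kb of a start made up 27.5% of its single-library sites (1194 sites), against 11.0%, 12.0% and 10.9% in the other 3 libraries, and 22.0% of its own shared sites. Introns held 31.7% and distal intergenic sequence 23.7% of its sites, while the other 3 libraries had 41.0% to 41.9% in introns and 29.9% to 33.0% in distal sequence. The median distance to a gene start was 7605 bp in Paupar KD replicate 2, against 13661, 13838 and 16194 bp in control KD replicate 1, control KD replicate 2 and Paupar KD replicate 1. The group means of this median, 13749.5 ± 125 bp in control KD and 11899.5 ± 6073 bp in Paupar KD (SD, n = 2), differed by less than the spread of the Paupar KD libraries (exact permutation test, two-sided, p = 1; adjusted p = 1). Compared with the shared sites of the same library, the median distance of single-library sites was longer by 942.5 ± 3346 bp on average (SD, n = 4; exact sign-flip permutation test, p = 0.75; adjusted p = 1). It was the longer one in 3 of 4 libraries, and again Paupar KD replicate 2 was the exception. Neither direction was stable: without Paupar KD replicate 2 the group difference was 2840 bp in place of -1850 bp, and the difference within libraries was 31.6 bp with a window of 100 bp, -156.25 bp for summits with a score of 5 or more and -164.25 bp with equal list lengths.

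**Figure D3:**
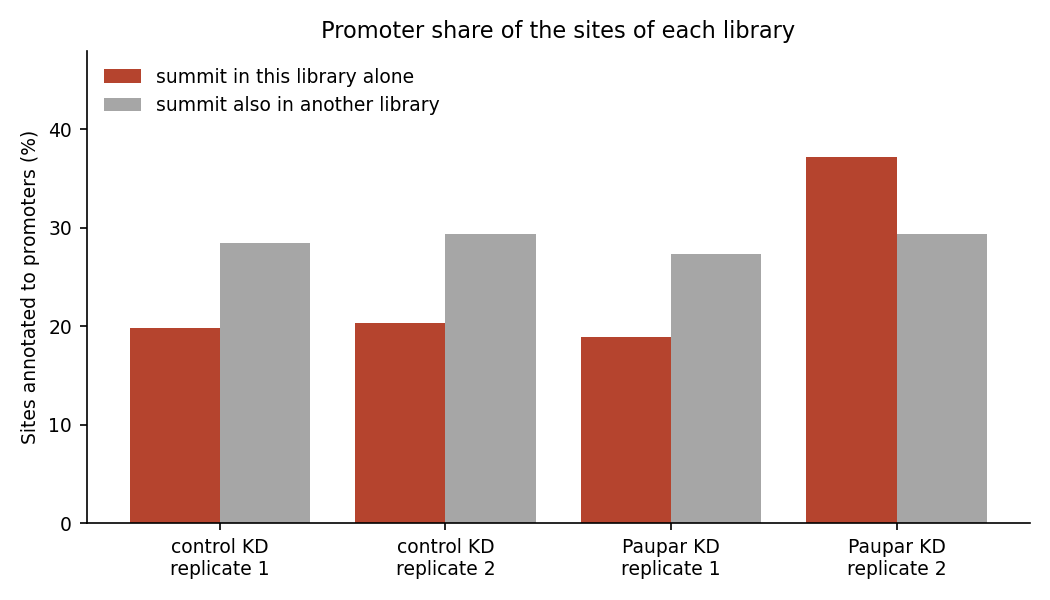
Bars give the percentage of sites annotated to promoters in each library, red for sites with a summit in that library alone and grey for sites with a summit in another library too. The red bar is below the grey one in 3 libraries and above it in Paupar KD replicate 2, at 37.2% against 29.4%.

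Promoter sites also differed in signal between the Paupar KD libraries. The 1614 promoter sites of Paupar KD replicate 2 had median concentrations of 4.87 for control KD against 4.85 for Paupar KD per the authors' deposited table, whereas its 2725 other sites had 3.18 and 3.83. The 642 promoter sites of Paupar KD replicate 1 had 3.30 and 4.20 per the authors' deposited table, and its 2761 other sites 2.34 and 3.95. Outside promoters the sites of both libraries were lower in control KD by the median, and at the promoters of Paupar KD replicate 2 the medians of the groups were nearly equal. The choice of sites by a summit in a Paupar KD library alone favours a lower control KD value, so this is a description.

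The promoters that held a site within the RefSeq window (250 bases before to 50 after the start) could be read for base composition. Single-library sites fell in 64 such windows for control KD replicate 1, 41 for control KD replicate 2, 83 for Paupar KD replicate 1 and 358 for Paupar KD replicate 2. The median number of CpG dinucleotides per window was 12, 12 and 10 in the first 3 libraries and 20 (quartiles 15 and 25) in Paupar KD replicate 2, against 16 or 17 at the shared sites of each library and 7 over all 32851 windows. The median GC content was 60.0% for Paupar KD replicate 2 and 56.2%, 59.0% and 54.0% for the others, in the order above. At the shared sites it was 56.0% for Paupar KD replicate 2 and 56.0%, 55.7% and 55.3% for the others. By GC, the single-library windows of control KD replicate 2 were thus also above their shared sites, and those of control KD replicate 1 were close to theirs. The windows read for Paupar KD replicate 2 were CpG-rich, as many promoters of widely expressed genes are. Those of the other 3 libraries had fewer CpG than their shared sites by the median. The Rasgrf2 stretch printed above, with 22 CpG dinucleotides in 250 bases, is an example of the first kind, but single stretches varied: that of Slc25a36, from control KD replicate 2, holds 24.

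**Figure D4:**
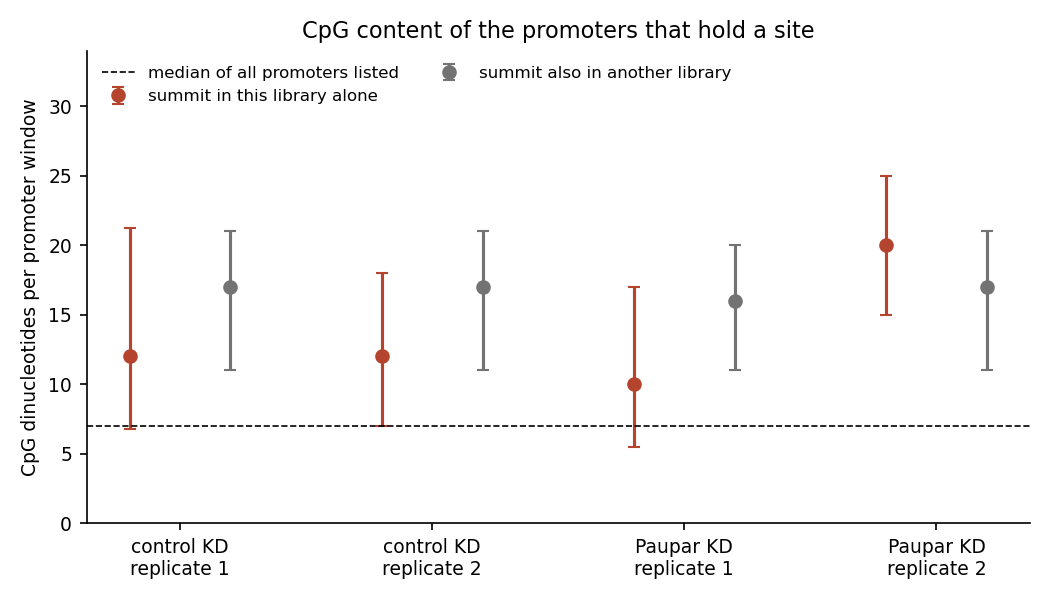
Points give the median number of CpG dinucleotides in the promoter windows that hold a site, and bars the quartiles, in red for windows of single-library sites and in grey for windows of sites shared with another library; the dashed line is the median of all windows, 7. Red lies below grey in 3 libraries (12, 12 and 10) and above it in Paupar KD replicate 2 (20 against 17).

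Letters of known motifs were searched on both strands of these windows. TTCACGC, the core of the Pax6 paired-domain motif, was found in 10 of the 546 windows with a single-library site (1.83%), in 18 of 460 windows of 4-library sites (3.91%) and in 1.26% of all windows. Of the 10, 7 were among the 358 windows of Paupar KD replicate 2 (1.96%) and 3 among the 83 of Paupar KD replicate 1 (3.61%). There were 0 in the 64 windows of control KD replicate 1 and 0 in the 41 of control KD replicate 2. These windows are too few to set the groups apart. At the shared sites of the control KD libraries the core was in 3.30% and 3.38% of the windows. A longer form of that motif, which contains the core, was in none of the single-library windows, in 0.217% of the 4-library windows and in 0.0396% of all. The paired-class homeodomain palindrome, a pair of TAAT half-sites facing each other, was in 0.183% of the single-library windows and in 0.487% of all. CCAAT, the box bound by NF-Y, was in 41.9%, against 45.0% at the 4-library sites and 37.4% of all windows. The forkhead string TGTTTAC was in 3.30% and the AP-1 string TGANTCA in 7.51%, close to the 3.65% and 7.81% of all windows. Such a match is a description of letters, not of binding, and the windows cover only a small part of the single-library sites.

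A site can miss a summit of another library by a little or by a lot, and both occurred. Another library had a summit within 500 bp, past the window of 250 bp, at 6.80% of the single-library sites of control KD replicate 1, 6.43% of control KD replicate 2, 6.35% of Paupar KD replicate 1 and 5.85% of Paupar KD replicate 2. At the far end, 45.2%, 49.0%, 51.5% and 48.9% had no summit of another library within 10 kb. The median distance to the nearest other-library summit was 7860.5, 9427, 11029.5 and 9552.5 bp. At most single-library sites the nearest other summit was thus over 1 kb away. The own summit lay at a median of 37.5, 52.5, 34.5 and 38.5 bp from the middle of the window, against 35.5, 38.5, 42.5 and 38.5 bp at the shared sites, so it was farther off in control KD replicate 2 and nearer in Paupar KD replicate 1.

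**Figure D5:**
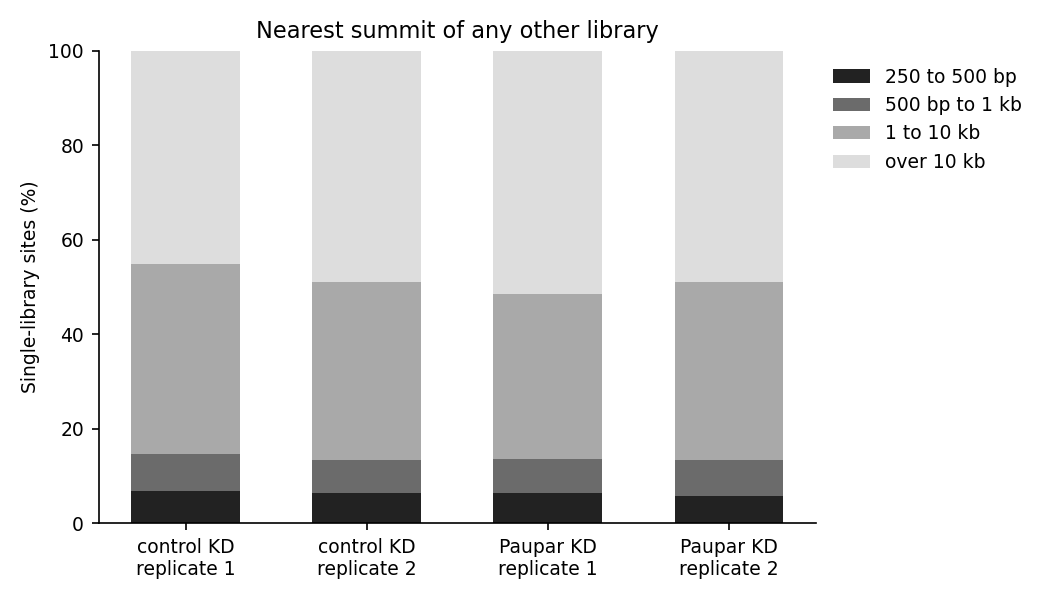
Stacked bars divide the single-library sites of each library, in percent, by the distance from the middle of the site to the nearest summit of any other library: 250 to 500 bp, 500 bp to 1 kb, 1 to 10 kb and over 10 kb. The 4 bars are alike, with 5.85% to 6.80% in the nearest class and 45.2% to 51.5% in the farthest.

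Sites at the edge of the window had values near those of the rest. Of the members, 450 had their own summit over 200 bp from the middle, with medians of 3.22 for control KD against 3.57 for Paupar KD per the authors' deposited table and 26.2% promoters. The 329 sites just outside, with no summit within 250 bp and that of 1 library within 300 bp, had 3.09 and 3.51 per the authors' deposited table and 26.1% promoters. A further 284 members would have a second library within 300 bp, and their medians were higher, 3.90 and 4.15 per the authors' deposited table. Single-library sites were also found beside better supported ones: 405 (3.52%) had a site of 2 to 4 libraries within 1 kb, compared with 1.25% of the sites of 2 to 4 libraries themselves. Within 10 kb the shares were close, 36.2% and 35.4%, and the median distance to such a site was 19164 bp for single-library sites and 18289 bp for the others.

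Calls of the authors' own comparison rest on the same libraries as the summits, and are counted here as a description. In the table, 1010 sites had a deposited FDR of 1 beside a smaller p-value and were taken here as outside the authors' adjustment. The sources used here do not state this. Of the single-library sites, 887 were among them, so 10624 were counted as tested. At an FDR below 0.05, 239 (2.25%) were called higher after Paupar KD, against 3.39% of the 25234 tested sites of the table, and 28 (0.264%) were called lower, against 0.88%. In either direction 4.27% of those tested sites were called. Of the 239 calls upward, 206 had their summit in Paupar KD replicate 1 (6.65% of its tested sites), 33 in Paupar KD replicate 2 (0.808%) and 0 in either control KD library. Of the 28 calls downward, 9 were in control KD replicate 1, 11 in control KD replicate 2, 1 in Paupar KD replicate 1 and 7 in Paupar KD replicate 2. At a deposited p-value below 0.05, which 17.5% of the tested sites of the table passed, the shares of the tested single-library sites were 6.95%, 9.02%, 32.5% and 8.79%. Upward, 4 sites of control KD replicate 1 and 0 of control KD replicate 2 passed it.

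These counts move with the summit lists taken, while the calls themselves stay those of the authors' full comparison. Counted over the other 3 libraries, where some sites of 2 libraries become single ones, calls upward numbered 452 without Paupar KD replicate 1 and 625 without Paupar KD replicate 2, and calls downward 44 without control KD replicate 1. Of the 239 calls upward, 158 remained without the sites at the floor.

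The sites called higher mostly had little control KD signal. The 206 of Paupar KD replicate 1 had median concentrations of 0.61 for control KD against 4.69 for Paupar KD per the authors' deposited table; 74 stood at the floor of control KD. The lowest FDR was at the promoter of Tmem69, which encodes a transmembrane protein (2.95 and 5.88, FDR 0.000298), and the next at Gnai1, the gene of an inhibitory G protein alpha subunit (1.97 and 5.56, FDR 0.00034 per the authors' deposited table). Pax3, a paired-box relative of Pax6 known for the neural crest and muscle, had a site in intron 4 of 8 with 1.37 and 5.42 per the authors' deposited table (FDR 0.000373). Its summit score was 13.6, and the nearest summit of another library was 5.81 kb away. In Paupar KD replicate 2 the lowest FDR values were at sites near Slc22a23, a transporter gene (3.36 and 5.88, FDR 0.000581), Pgm1, a phosphoglucomutase gene (0.61 and 5.13, FDR 0.00133), and the predicted gene Gm2109 (0.95 and 5.11, FDR 0.00167 per the authors' deposited table).

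Of the sites called lower, 3 of the 9 in control KD replicate 1 and 5 of the 11 in control KD replicate 2 were promoters. Rdh13, a retinol dehydrogenase gene, had 6.52 for control KD against 4.96 for Paupar KD per the authors' deposited table (FDR 0.00376), and C2cd5, a gene of vesicle trafficking, had 7.79 and 6.77 (FDR 0.0164); both summits were in control KD replicate 1. An intronic site of Aida, which encodes an axin-interacting protein, combined a high score (31.9) with a call (5.85 and 4.03 per the authors' deposited table, FDR 0.0139). In control KD replicate 2 the lowest FDR was in intron 9 of 12 of Tbc1d22a, a Rab GTPase-activating gene (4.99 and 2.13, FDR 0.0160), followed by the promoters of Pcnx4 (FDR 0.0181) and Brix1, a ribosome biogenesis gene (FDR 0.0194 per the authors' deposited table).

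At 8 sites the call ran against the library that held the summit, which was a Paupar KD library while the site was called lower after Paupar KD. They were singled out after their values were seen. The 7 of Paupar KD replicate 2 were all promoters, with median concentrations of 7.71 for control KD against 6.76 for Paupar KD per the authors' deposited table, at Trip12, Tbc1d7, Lnpep, Fnbp4, Prex1, Hipk1 and Foxp1. Hipk1, a kinase of the same family as Hipk2, had 7.58 and 6.57 (FDR 0.0120), and Foxp1, a forkhead transcription factor gene, 7.56 and 6.66 per the authors' deposited table (FDR 0.0391). Their scores, 9.50 at Hipk1 and 9.52 at Foxp1, were under the median of 12.9 of the sites that this library shared with others. The 1 site of Paupar KD replicate 1 was distal to Snd1, a transcriptional coactivator gene (6.17 and 4.72 per the authors' deposited table, FDR 0.0244).

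By gene, 6376 of the 10196 genes with a site (62.5%) had at least 1 single-library site, and 2744 had no other kind. For 2193 genes a single-library site was the only site in the table. At the other end, 338 genes had 5 or more, and 127 had single-library sites of all 4 libraries. The highest numbers were at Hdac4, a class II histone deacetylase (25 of its 45 sites: 10 in control KD replicate 1, 3 in control KD replicate 2, 4 in Paupar KD replicate 1 and 8 in Paupar KD replicate 2), and Wwox, an oxidoreductase gene (25 of 50: 6, 2, 9 and 8). Sh3bp4, an endocytic adaptor gene, had 21 of 36, Msi2, which encodes the RNA-binding protein Musashi-2, 20 of 37, and Pde10a, a cyclic nucleotide phosphodiesterase gene, and Snd1 19 of 36 and 19 of 34. These are genes with many sites of every kind. For 5 of the 6 the longest transcript to which a site was annotated was over 100 kb (163 kb for Snd1 to 640.0 kb for Wwox). It was 84.7 kb for Sh3bp4. The span of a whole gene can be longer.

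The gene lists of the islet and of other Pax6 tissues had shares of single-library sites from 34.1% to 46.0%. The alpha-cell identity list had 36 single-library among its 85 sites (42.4%), the beta-cell list 14 of 41 (34.1%), islet transcription factors 42 of 117 (35.9%) and hormone secretion and processing 83 of 184 (45.1%), beside 43.9% for all sites. The neural list had 23 of 50 (46.0%) and the lens and eye list 17 of 37 (45.9%). The 36 alpha-cell sites were split into 9, 1, 17 and 9 by library, in the usual order, and their median log2 change was 1.80, with median concentrations of 2.46 for control KD against 4.11 for Paupar KD per the authors' deposited table. The 14 beta-cell sites (4, 2, 7 and 1) had a median change of 2.22 per the authors' deposited table, against 0.18 over all single-library sites. Both lists held more sites of Paupar KD replicate 1 than of any other library, the one with the largest median change (1.49). In the other lists the median change was 0.44 for islet transcription factors, 0.24 for secretion, -0.07 for the neural and 0.62 for the lens and eye list per the authors' deposited table.

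At an FDR below 0.05, the calls among listed sites were all upward. They numbered 4 of 32 tested in the alpha-cell list, 1 of 12 in the beta-cell list, 2 of 39 in the transcription factor list, 3 of 78 in the secretion list, 1 of 22 in the neural list and 0 of 15 in the lens and eye list (at a deposited p-value below 0.05, 1 was higher and 1 lower), beside 3.39% of the tested sites of the table. Some genes are in more than 1 list. In the alpha-cell list they were at Gcg, Irx1 and, with 2 sites, Rgs4, a regulator of G-protein signalling. The Rgs4 site with the higher score, 27.5, had 1.04 for control KD against 4.84 for Paupar KD per the authors' deposited table (FDR 0.0228), and the other was listed at the control KD floor (-0.01 and 4.16, FDR 0.0446 per the authors' deposited table). St18, a zinc finger gene, had a called site in a 5′ UTR exon with a score of 24.9 that was also listed at the floor (-0.01 and 4.80, FDR 0.0312 per the authors' deposited table).

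Genes of the secretory machinery were represented by 3 calls. Ptprn, a dense-core vesicle protein gene, had a promoter site of Paupar KD replicate 1 with 1.58 for control KD against 4.59 for Paupar KD per the authors' deposited table (FDR 0.0370). Rims2, an exocytosis scaffold gene, and Exoc4, an exocyst subunit gene, had intronic sites of Paupar KD replicate 2 with 0.61 and 4.40 (FDR 0.0284) and 1.51 and 5.12 (FDR 0.00296) per the authors' deposited table. Within Paupar KD replicate 1, the highest-scoring site of this list was distal to Pcsk1, the prohormone convertase gene, with a score of 83.7. Its concentrations were 1.64 and 5.78, with an FDR of 0.262 per the authors' deposited table, and the nearest summit of another library was 670 kb away. In the neural list, the call was in an intron of Meis1, a homeobox gene (1.55 and 4.75, FDR 0.0394 per the authors' deposited table).

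Among genes known in alpha cells, Gcg, which encodes the glucagon precursor, had 5 sites, 2 of them single-library. One was 1.96 kb from a Gcg start (chr2:62478621-62478720), had its summit in Paupar KD replicate 1 with a score of 11.9, and was called higher (1.55 for control KD against 4.72 for Paupar KD, FDR 0.0200 per the authors' deposited table). The other lay just downstream of the gene with a summit in Paupar KD replicate 2 (score 19.8; 3.38 and 4.43, FDR 0.551 per the authors' deposited table), and another library had a summit 494.5 bp from it.

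Irx1, an Iroquois homeobox gene, had 12 single-library among 26 sites, 3 from control KD replicate 1, 1 from control KD replicate 2, 5 from Paupar KD replicate 1 and 3 from Paupar KD replicate 2. Of these, 1 was called: a distal site of Paupar KD replicate 2 with 2.46 and 4.81 per the authors' deposited table (FDR 0.0485). The Irx1 sites of the Paupar KD libraries were higher in Paupar KD, and those of the control KD libraries were higher in control KD. Among the latter was a promoter site of control KD replicate 2 with 5.46 and 4.34 per the authors' deposited table (FDR 0.286). Irx2, its neighbour in the same cluster, had 2 of 3, with concentrations of 4.97 and 4.11 and of 3.86 and 4.89 per the authors' deposited table. Etv1, an ETS-family gene, had 4 of 9, and its promoter site of Paupar KD replicate 1 within 1 kb of a start was listed at the control KD floor (-0.01 and 4.33, FDR 0.0728 per the authors' deposited table). The Etv1 site of control KD replicate 1 was higher in control KD (4.13 and 3.24, FDR 0.62 per the authors' deposited table). Its other sites, from the Paupar KD libraries, were higher in Paupar KD. Of the sites named here for Gcg, Irx1, Irx2 and Etv1, those called were at Gcg and Irx1.

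Pax6 itself had 4 single-library sites of 9, and the remaining sites were 4 with summits in all 4 libraries and 1 with none. A promoter site of control KD replicate 1 had a score of 13.8, with 5.97 for control KD against 5.67 for Paupar KD per the authors' deposited table (FDR 0.754). The promoter sites of Paupar KD replicate 1 (4.36 and 4.46) and Paupar KD replicate 2 (4.21 and 3.88 per the authors' deposited table) also had FDR values far from 0.05, at 0.967 and 0.872. Paupar, as the nearest annotated start, had 1 single-library site of 4, with its summit in Paupar KD replicate 1. The site lay 109 kb from that start, in intron 3 of 3 of a transcript of another gene, Pax6os1. It was called higher (0.61 for control KD against 4.81 for Paupar KD, FDR 0.00736 per the authors' deposited table), and the nearest summit of another library was 28.9 kb away.

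Of the islet genes beyond the alpha cell, Nkx6-1, a beta-cell homeobox gene, had 3 of 11, and 2 of these, from Paupar KD replicate 1, were listed at the control KD floor. One was called (-0.01 and 4.36, FDR 0.0285 per the authors' deposited table) and the other was not (-0.01 and 3.73, FDR 0.142 per the authors' deposited table). The remaining Nkx6-1 site, from control KD replicate 2, ran the other way, with 4.38 and 2.67 per the authors' deposited table (FDR 0.26). Slc30a8, the zinc transporter of secretory granules, had 2 of 8, both from Paupar KD replicate 1 (1.37 and 4.55, FDR 0.0567, and 1.34 and 4.07, FDR 0.167 per the authors' deposited table). Neurod1, a proneural factor of the islet, had 1 of 3, from the same library and listed at the control KD floor (-0.01 and 4.13, FDR 0.0507 per the authors' deposited table). Of these 5 sites of Paupar KD replicate 1, only the first passed the threshold.

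Promoter sites of Foxa2 and Pcsk2 were near misses of the window. Foxa2, a forkhead factor of endoderm, had 6 single-library sites of 16, and that at its promoter had a summit in control KD replicate 2 with another library at 253.5 bp (6.71 for control KD against 5.80 for Paupar KD, FDR 0.148 per the authors' deposited table). Pcsk2, the convertase that processes proglucagon in alpha cells, had its only site at the promoter, with a summit in Paupar KD replicate 2 and another library at 432.5 bp (6.40 and 5.75, FDR 0.476 per the authors' deposited table). Isl1, a LIM homeobox gene, had 2 of 6, one of them listed at the control KD floor (-0.01 and 3.78, FDR 0.119 per the authors' deposited table). The other, a promoter site of control KD replicate 2, had 4.81 and 4.58 per the authors' deposited table (FDR 0.895). Pou3f4, Iapp, G6pc2, Rfx3 and Cpe had sites in the table but no single-library site.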

How the data were processed

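The 4 Pax6 ChIP libraries, 2 per group, were used; groups came from the sample titles, and 1 list whose library name carries another replicate number than its title was kept with the sample that GEO pairs it with. Bowtie2, MACS2, DiffBind and ChIPseeker and the mm10 build are named, per the submitters' processing notes, without versions or settings. Summits had been called per library, per the library name inside each deposited list, and their score was read as the −log10 of the q-value. The authors' table gives log2 concentrations and fold (sign turned here to Paupar KD minus control KD) as group means. The authors' deposited p-value and FDR were used unchanged, while the sources used here do not state the normalization between libraries, the test or the use of inputs. Read depth is unknown, so no counting interval was given for a signal.

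A summit held a site within 250 bp of its middle. An FDR below 0.05 was a call. Promoter share and distance were compared over libraries with exact permutation tests. The matching of summits to sites was checked on simulated summits first, and the permutation tests on a few made-up values. Intervals are Clopper-Pearson at 95%, and the limit beside a count of 0 is 3 counts of the total. Same-numbered libraries share only a number. RefSeq promoter windows (GRCm38.p6) gave sequences, CpG and motifs, since whole-genome sequence was not used here. Symbols that a spreadsheet had turned into dates (51 sites) were restored from gene IDs, and 2 sites had no symbol.

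The members, lists and rules were chosen with earlier results of these data known. Named were, per library, the 5 highest scores, up to 3 lowest FDR values and 2 highest mean concentrations; the 5 genes with most single-library sites (a tie gave 6); and 19 fixed islet and Pax6-related genes, some of which are not reported here. Called or highest-scoring sites of the 6 gene lists, the 8 calls against their own library and the printed sequences' genes were added after their values were seen. Alternatives were windows of 100 and 500 bp, summits with a score of 5 or more, equal list lengths, each library left out, other FDR thresholds, sites without floor values or outside the authors' adjustment, and promoters within 1 kb. Python 3.11.15, pandas 2.3.3, scipy 1.17.1 and statsmodels 0.14.6 were used.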

Additional observations from a re-analysis of the deposited data

How the results depend on the processing

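The total of 11511 single-library sites depends on the summit lists: with lists of equal length it was 6756, and with each library left out in turn it was 11028 to 11428. Calls upward (239) numbered 158 without sites at the floor, 52 at an FDR below 0.01 and 483 below 0.1; calls downward (28) numbered 1 and 58, and both together (267) 53 and 541. With the summits of a library left out, calls upward ranged from 240 to 625 (452 without Paupar KD replicate 1 and 625 without Paupar KD replicate 2). Calls downward ranged from 30 to 44 (44 without control KD replicate 1) and both from 274 to 659. Leaving out a library makes sites of 2 libraries into single ones, while the deposited calls stay the same. Of 40 alternative values of the 4 tests, 36 kept their direction, though not their size: the promoter share of single-library minus shared sites ranged from -6.18 to -0.79 points. The 40 include those with the replicate number as a block, which equal the reported values by construction and could not reverse. The median distance of single-library minus shared sites became -156.25 bp for scores of 5 or more and -164.25 bp with equal list lengths. With a library left out, the group difference in promoter share ranged from -3.62 to 13.1 points and that in distance from -4384.5 to 2840 bp; without Paupar KD replicate 2 they were -3.62 points and 2840 bp. The cause of these reversals was not tested. The exact permutation test of the group differences cannot give a p below 0.333 with 2 libraries per group. Over all alternatives the exact sign-flip permutation test within libraries gave a p of at least 0.25 for the promoter share and 0.625 for the distance. With 4 libraries or fewer this test cannot reach a p of 0.05 either. None of these p-values therefore shows that a difference was absent. The promoter share of Paupar KD replicate 2 was 36.4% at 100 bp, 37.1% at 500 bp, 37.2% for scores of 5 or more, 40.6% with equal list lengths and 33.4% without Paupar KD replicate 1. Of 96 named sites, 17 gained a second library at 500 bp, and 20 lost their only summit with equal list lengths.

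With the replicate number as a block, the group differences were 7.97 points and -1850 bp (exact sign-flip permutation test, p = 1 for each). These equal the reported values by construction, so the block could not change them and says nothing about their stability. With so few pairs of libraries the test cannot give a small p, and no conclusion is drawn from it. The deviations of same-numbered libraries in summit support had r = -0.0054 over the 26244 sites, a value across sites, which are not independent.

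The unknown read depth, 2 libraries per group and the lack of signal per library limit these results: a site without a summit in a library can still have signal there.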

Other observations

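Summits without a partner also lay outside the table of sites. With no summit of another library within 500 bp, there were 2872 such lone summits in control KD replicate 1, 1283 in control KD replicate 2, 3678 in Paupar KD replicate 1 and 4690 in Paupar KD replicate 2. Of these, 402 (14.0%), 215 (16.8%), 452 (12.3%) and 583 (12.4%) had no site of the table within 250 bp, whereas at most 7.52% of the other summits had none. Their highest scores, each within its own list, were 43.8, 42.4, 113 and 34.9, so absence from the table was not limited to the weakest summits.

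Over the chromosomes, the share of sites that were single-library ranged from 40.6% to 49.4%, with the highest share on chromosome 1 (1299 of 2629 sites) and 43.1% on chromosome X. The share that belonged to Paupar KD replicate 1 alone ranged from 9.24% on chromosome 17 to 17.9% on chromosome 1.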
